A study of Mus musculus with 40 samples.

Results

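The cytosolic ribosomal protein genes were described across the amygdala transcriptomes of mice that differed in their microbiota and in recent social experience. Members were the protein-coding genes whose symbol was Rpl or Rps followed by a digit, together with Rplp0, Rplp1, Rplp2 and Rpsa. Rps24, Rpl7a, the processed copies named -ps and the Rps6k kinases were left out. The rule gave 84 of the 43629 genes in the table: 30 proteins of the small subunit, 42 of the large subunit, 3 proteins of the stalk, 8 paralogs (Rpl3l, Rpl7l1, Rpl10l, Rpl22l1, Rpl36al, Rpl39l, Rps27l and Rps27rt) and Rps19bp1, whose product binds Rps19. The rule itself uses symbols and no measured value, though it was set with earlier results of these data known. The members lay on 19 chromosomes, with 4 genes on X.

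The animals were male Swiss Webster mice, an outbred stock, 10 weeks old, and RNA came from the left amygdala. Conventional mice (CON) had a normal microbiota, germ-free mice (GF) had been kept sterile in isolators, and exGF mice were germ-free animals that received a microbiota after weaning through used bedding of conventional mice. Each was sampled either naive or 1 hr after the 3-chamber social interaction test (SI), which gave CON (n = 4), GF (n = 4), exGF (n = 4), CON-SI (n = 8), GF-SI (n = 12) and exGF-SI (n = 8), 40 libraries in all. The naive libraries were pools of RNA from 2 or 3 animals and the SI libraries came from single animals, so social interaction cannot be told apart from pooling. The breeding pairs that gave CON mice were not those of GF and exGF mice, so colonisation cannot be told apart from breeding stock. Single libraries are named below by the P (pool) or S (single animal) and number of their column.

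A ribosome joins a small subunit, which reads the mRNA, to a large subunit, which makes the peptide bond, and each cytosolic ribosomal protein is normally present in a single copy per subunit. The acidic stalk proteins are the exception, being held in several copies at the base formed by Rplp0, where they recruit the elongation factors. In mammals most of these mRNAs begin at a C that is followed by a run of pyrimidines, the terminal oligopyrimidine (TOP) motif, through which mTORC1 and the RNA-binding protein Larp1 control their translation. In neurons, ribosomal protein mRNAs are among the transcripts found in dendrites and axons as well as in the cell body.

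The region around the transcription start is shown for a few members that were called after social interaction, some with a long and some with a short pyrimidine run, and for a paralog, because the TOP motif is the sequence feature the family is known for. Sequences were taken from RefSeq (GRCm38.p6), which had an entry for 64 of the 84 members. Each window ran from 60 bases before the annotated start to 20 bases from it, 80 bases in all, and capitals mark the longest run of C and T that touched the 10 bases either side of the start. The first 4 genes carried a long run.
Rpl35 (chr2:39005112-39005191, minus strand): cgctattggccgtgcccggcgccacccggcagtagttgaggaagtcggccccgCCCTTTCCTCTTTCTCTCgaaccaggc
Rps27 (chr3:90213629-90213708, minus strand): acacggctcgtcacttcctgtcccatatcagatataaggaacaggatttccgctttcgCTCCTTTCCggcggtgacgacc
Rpl38 (chr11:114668520-114668599, plus strand): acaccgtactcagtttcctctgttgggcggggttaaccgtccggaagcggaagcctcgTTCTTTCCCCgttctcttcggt
Rpl15 (chr14:18270967-18271046, minus strand): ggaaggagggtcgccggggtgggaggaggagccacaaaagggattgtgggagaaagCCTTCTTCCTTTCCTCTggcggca
The next 3 genes had a run of no more than 3 bases within 10 bases of the annotated start. Longer runs further from the start, such as ctctttctc in Rpl5, were not marked or counted.
Rpl26 (chr11:68901506-68901585, plus strand): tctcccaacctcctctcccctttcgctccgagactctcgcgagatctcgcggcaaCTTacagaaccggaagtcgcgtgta
Rpl5 (chr5:107900468-107900547, plus strand): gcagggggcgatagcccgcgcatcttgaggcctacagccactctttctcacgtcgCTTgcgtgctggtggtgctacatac
Rpl41 (chr10:128549149-128549228, minus strand): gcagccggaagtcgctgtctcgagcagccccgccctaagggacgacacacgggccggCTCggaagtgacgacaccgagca
Rps27rt, a copy of Rps27, is shown beside Rps27 because both windows shared 38 unbroken bases, counted over the whole RefSeq entries, from about the start onwards.
Rps27rt (chr9:114982720-114982799, minus strand): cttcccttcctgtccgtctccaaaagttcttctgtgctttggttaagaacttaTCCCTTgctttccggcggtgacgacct

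A run of at least 8 pyrimidines that reached within 10 bases of the start was found in 27 of the 64 members (42.2%). It was found in 15.8% of the 27025 genes with an entry. Such a run need not cover the start itself. CTTTCC on the coding strand, within 20 bases of the start, was found in 18.8% of members and 2.3% of all genes. CTCTTTC in the same window was found in 10.9% of members and 0.662% of all genes, and these letters overlap with CTTTCC and with the pyrimidine runs. Over the entry from 250 bases before to 50 after the start and on both strands, CCGGAAG, the letters bound by Ets factors such as Gabpa, stood in 40.6% of members and 9.93% of all genes. The GC box letters GGGCGG stood in 62.5% of members and 38.2% of all genes, also on both strands. TATAAA in the 50 bases before the start was found in 1.56% of members and 3.15% of genes.

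Libraries held between 7291810 and 19962000 counts (rounded to 6 digits). In 5 libraries the gene model Gm42418, which lies in ribosomal RNA, took over 5% of the counts: CON P1 and P3, exGF P1 and P2, and exGF-SI S7, with 32.3% in CON P1. All other libraries were at 1.75% or below. The 8 neuronal markers were detected in every group, with summed levels of 6433 to 8624 CPM (counts scaled to the TMM-adjusted library size). The 10 markers of choroid plexus and ependyma, structures that border the ventricles, were above 0 in every group but spread widely: their summed level had medians of 31.6 to 81.5 CPM by group and its highest value was 1051 CPM in GF-SI animals and 1497 CPM in exGF-SI animals. It was above 500 CPM in 5 libraries, GF-SI S8 and S12 and exGF-SI S4, S7 and S9, and in no CON-SI library. In bulk tissue, fewer cells of a type and less RNA per cell cannot be told apart.

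The members took a small share of the libraries. Their counts made up 0.293% to 0.808% of a library, with a median of 0.697%. The mean share was 0.573% ± 0.207 (SD, n = 4) in CON, 0.713% ± 0.0363 (SD, n = 4) in GF, 0.654% ± 0.115 (SD, n = 4) in exGF, 0.723% ± 0.0581 (SD, n = 8) in CON-SI, 0.694% ± 0.0548 (SD, n = 12) in GF-SI and 0.701% ± 0.0642 (SD, n = 8) in exGF-SI. The low and wide share of CON went with the libraries rich in Gm42418. With Gm42418 and the mitochondrially encoded genes taken out of the total, the group means lay between 0.759% (CON) and 0.797% (exGF).

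Of the 84 members, 81 were measured well enough to be tested in every comparison. The other 3 were paralogs: Rpl10l held 1 count over all 40 libraries, Rpl39l 28 counts and Rpl3l 33 counts. Levels between genes were compared as CPM per kilobase of exon. Over the libraries the median was 281 for Rplp1, 243 for Rpl17 and 190 for Rps21, the 3 highest, and 3.65 for Rps27rt, 4.35 for Rps19bp1 and 4.45 for Rpl35a, the 3 lowest among members with a mean of at least 1 CPM. The median gene of the small subunit stood at 35.7, that of the large subunit at 37.8 and that of the stalk at 44.8. The level depended on the length used, since the median over members was 32.2 per kilobase of all exons and 62.4 per kilobase of the longest transcript.

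**Figure D1:**
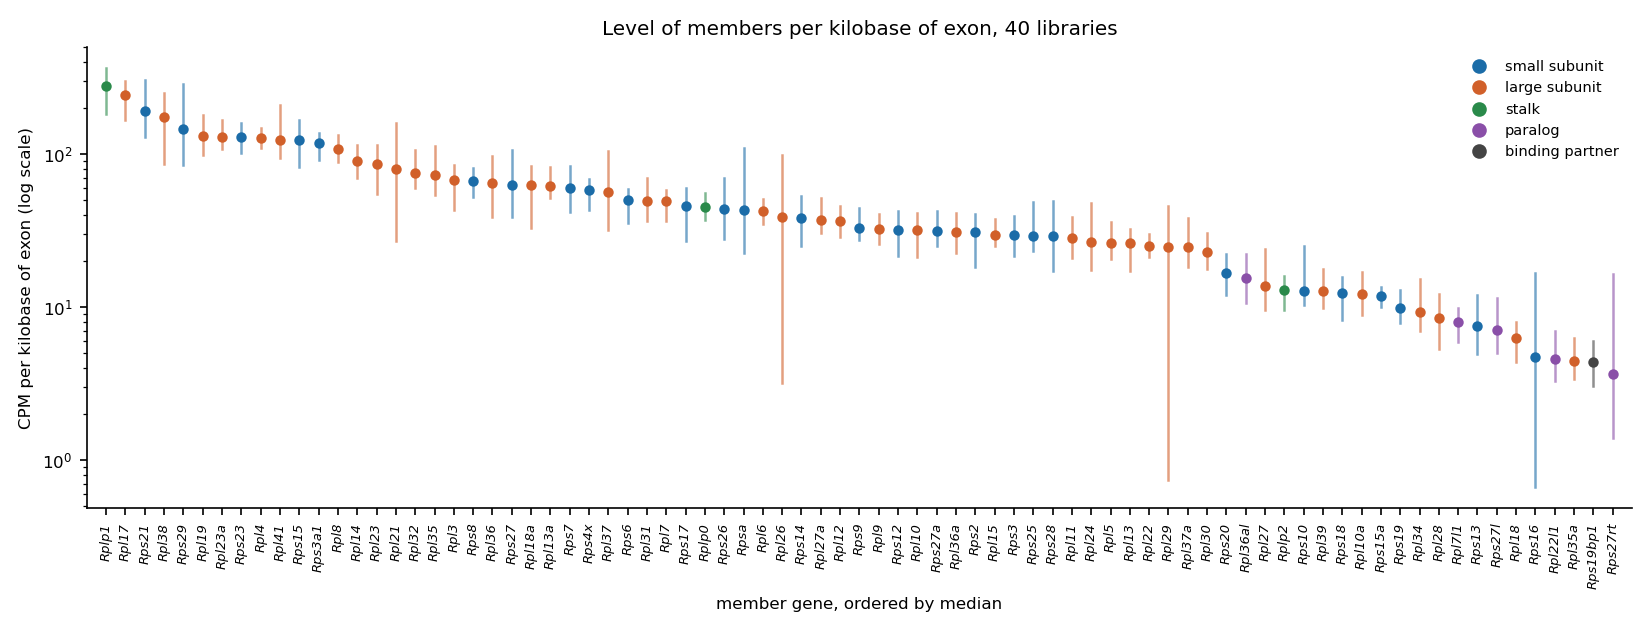
Level of cytosolic ribosomal protein genes in CPM per kilobase of exon (log axis), 1 point per gene at its median over the 40 libraries with a line from the lowest to the highest library, ordered by median and coloured by role. Members with a mean below 1 CPM and genes not reported here are left out. The small and large subunit genes and the stalk genes centre between 35.7 and 44.8, and the paralogs centre at 7.12.

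Each paralog lay below its parent gene per kilobase of exon. Rps27, a zinc-binding protein of the small subunit, stood at 62.7, Rps27l at 7.12 and Rps27rt at 3.65. Rpl7 stood at 49.1 and Rpl7l1 at 7.98, and Rpl22, a protein that in T cell development has a counterpart in Rpl22l1, at 25.1 against 4.58. The closest pair was Rpl36a at 30.9 and Rpl36al at 15.5. Rpl3, Rpl10 and Rpl39 stood at 67.7, 31.9 and 12.7, while their copies Rpl3l, which replaces Rpl3 in muscle, Rpl10l and Rpl39l were close to 0. Within the stalk, Rplp0 stood at 44.8 and Rplp2 at 13.0, below Rplp1.

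Rplp0 and Rpsa differed in how much they varied. Rplp0 was at 63.5, 73.8, 77.4 and 81 CPM in the 4 CON libraries, 70.8, 73.3, 81.4 and 83.2 CPM in GF and 71.5, 74.0, 75.4 and 78.6 CPM in exGF, and at 74.7 to 93 (median 82), 61.2 to 85.4 (median 72.6) and 64.2 to 84 CPM (median 72.6) in CON-SI, GF-SI and exGF-SI. The ranges of Rplp0 overlapped between all groups. Rpsa, the laminin receptor precursor of the small subunit, was at 71.1, 134, 160 and 254 CPM in CON, 106, 108, 113 and 202 CPM in GF and 95.0, 158, 176 and 201 CPM in exGF. In single animals it ran from 122 to 283 CPM (median 230) in CON-SI, 106 to 349 CPM (median 122) in GF-SI and 99.8 to 256 CPM (median 143) in exGF-SI, so it varied over 3-fold within CON and within GF-SI. None of the stalk genes passed the threshold in any comparison.

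The first question was how each colonisation group differed between naive animals and animals tested 1 hr after social interaction. In conventional mice a single member passed the threshold (edgeR quasi-likelihood test, Benjamini-Hochberg adjusted p below 0.1 over all genes tested). Rpl13, a protein of the large subunit, was at 44.6, 58.9, 59.1 and 59.8 CPM in CON and at 61.7 to 83.6 CPM (median 70.5) in CON-SI. All 8 CON-SI libraries lay above all 4 CON libraries, with a log2 fold change of 0.36 ± 0.10 (SE, adjusted p = 0.0935, edgeR). The call of Rpl13 was lost without any of 10 of the 12 libraries, all but CON-SI S2 and S6, and without the libraries rich in Gm42418. Over all genes 2.35% were called higher and 1.37% lower, and 1 of 81 members higher and none lower. At an unadjusted p below 0.05 (edgeR) there were 8 of the 81 members, and 16.5% of all genes. DESeq2 called 2 members, and 962 of 26951 genes in all. The median log2 fold change of the members was 0.03 against -0.01 over all genes.

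In germ-free mice 15 of the 81 members passed the threshold after social interaction, 6 higher and 9 lower, where 7.87% of all genes were called higher and 5.86% lower. The members' shares, 7.41% and 11.1%, were near that background for higher calls and above it for lower calls. Small subunit genes gave 3 lower calls, Rps27 and Rps20 among them, and none higher, large subunit genes 5 in each direction, and paralogs 1 in each direction. The median log2 fold change was 0.01 over members and -0.01 over all genes.

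Rps27 had the smallest p. It was at 65.0, 78.9, 97.8 and 101 CPM in GF and at 50.9 to 80.5 CPM (median 59.1) in GF-SI. In 9 of the 12 GF-SI libraries it lay below the lowest GF pool, and it fell by 0.51 ± 0.11 on the log2 scale (SE, adjusted p = 0.0101, edgeR). Rps20, a protein of the head of the small subunit, fell by 0.22 ± 0.08 (SE, adjusted p = 0.0909, edgeR).

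Among large subunit genes, Rpl38, which is known for its part in the translation of Hox mRNAs, was at 97.9, 111, 120 and 125 CPM in GF and at 63.9 to 115 CPM (median 84.6) in GF-SI. All but 1 of the 12 GF-SI libraries lay below the lowest GF pool (log2 fold change -0.39 ± 0.11 SE, adjusted p = 0.0298, edgeR). Rpl35, which sits at the exit of the polypeptide tunnel, was at 88.8, 93.3, 104 and 114 CPM in GF and 71.0 to 98.3 CPM (median 77.0) in GF-SI, and fell by 0.32 ± 0.09 (SE, adjusted p = 0.0334, edgeR). Rpl10a of the L1 stalk, Rpl24 of an intersubunit bridge and Rpl10, which is needed for subunit joining, fell by 0.28 ± 0.08, 0.59 ± 0.19 and 0.22 ± 0.07 on the log2 scale (SE, adjusted p = 0.037, 0.06 and 0.0815, edgeR). In these genes single GF-SI libraries reached into the range of the pools.

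Rpl5 and Rpl11, which form a particle with the smallest rRNA of the large subunit and bind Mdm2, and Rpl23, which also binds Mdm2, were called higher. Rpl11 was at 56.9, 61.7, 66.6 and 71.9 CPM in GF and at 60.4 to 104 CPM (median 90.8) in GF-SI, a log2 fold change of 0.43 ± 0.13 (SE, adjusted p = 0.0436, edgeR). In 10 of 12 animals Rpl11 lay above the highest GF pool. Rpl5 was at 80.7, 95.2, 100 and 104 CPM in GF and at 97.9 to 141 CPM (median 115) in GF-SI, and it rose by 0.28 ± 0.10 (SE, adjusted p = 0.0885, edgeR). Rpl23 was at 111, 117, 123 and 138 CPM and then at 104 to 202 CPM (median 167), and it rose by 0.41 ± 0.15 (SE, adjusted p = 0.0919, edgeR). The other large subunit genes called higher were Rpl36a (0.35 ± 0.12 SE, adjusted p = 0.0753, edgeR) and Rpl26, whose wide spread is described further on (1.45 ± 0.45 SE, adjusted p = 0.0539, edgeR). Of the paralogs, Rpl7l1 went from 22.4, 22.8, 23.5 and 26.1 CPM in GF to 25.5 to 33.9 CPM (median 28.8) in GF-SI. It was above every GF pool in 11 of 12 animals (0.30 ± 0.07 SE, adjusted p = 0.0178, edgeR), and Rpl22l1 was called lower (-0.29 ± 0.10 SE, adjusted p = 0.094, edgeR).

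The count of 15 was 3 without the pool GF P2, 2 without the pool GF P3 and 9 without the single animal GF-SI S8. Calls over all genes in these fits are not given, so the fall cannot be read as particular to the members. Only Rps27 and Rpl7l1 kept their call whichever library was left out. The median log2 fold change of the choroid plexus and ependyma markers was 1.42 in the same comparison. Of the 9 tested markers, 4 had an unadjusted p below 0.05 (edgeR), where 24.0% of all genes did. Without the libraries above 500 CPM, 8 of the 15 members kept the call and none was added. Calls over all genes went from 2121 of 15443 to 1429 of 15354. The part of these cells in the result was not tested further. A correction for GC content and transcript length, which members differ in from other genes, turned the split of 6 higher and 9 lower into 15 higher and 3 lower (median 0.11 in place of 0.01). Over all genes 2104 of 15443 were then called, with a median of 0.01. With this correction Rpl35 missed the threshold (adjusted p = 0.278, edgeR, range 0.0145 to 0.278 over the settings other than leaving out single libraries).

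In exGF mice 14 of the 81 members passed the threshold after social interaction, 5 higher and 9 lower, where 4.6% of all genes were called higher and 3.01% lower. The members' shares were 6.17% and 11.1%. As in germ-free mice the lower calls included 3 small subunit genes, Rps29 and Rps28 among them, with none higher, and the large subunit gave 5 in each direction. The remaining lower call was the paralog Rpl36al. Of all 81 members, 50 had a negative and 31 a positive fold change, and the median was -0.05 on the log2 scale, where that of all genes was -0.00064.

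Rps29, a zinc-binding protein of the small subunit, had the smallest p in this comparison. It was at 132, 146, 152 and 198 CPM in exGF and at 58.5 to 114 CPM (median 86.3) in exGF-SI. Every exGF-SI library lay below every exGF pool, a 1.86-fold difference of the fitted means (log2 fold change -0.90 ± 0.14 SE, adjusted p = 0.0132, edgeR). Rpl35 was at 101, 101, 109 and 140 CPM in exGF and at 67.5 to 93.5 CPM (median 71.2) in exGF-SI. It fell by 0.59 ± 0.10 (SE, adjusted p = 0.0137, edgeR), again without overlap. Rpl36, another large subunit protein, was at 29.3, 30.5, 30.8 and 36.3 CPM in exGF and at 14.8 to 26.8 CPM (median 18.8) in exGF-SI. It did not overlap either and fell by 0.71 ± 0.14 (SE, adjusted p = 0.0239, edgeR).

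Other lower calls overlapped slightly. Rps28, at the mRNA exit of the small subunit, was at 57.4, 62.6, 62.8 and 78.5 CPM in exGF and at 29.6 to 65.5 CPM (median 39.8) in exGF-SI (log2 fold change -0.66 ± 0.16 SE, adjusted p = 0.0443, edgeR). Rpl41, the smallest ribosomal protein, was at 147, 161, 174 and 224 CPM and then at 110 to 164 CPM (median 125), and it fell by 0.44 ± 0.11 (SE, adjusted p = 0.0465, edgeR). In both genes 7 of the 8 single animals lay below all pools. The zinc-binding Rpl37, Rpl32 and Rpl36al fell by 0.51 ± 0.15, 0.29 ± 0.08 and 0.37 ± 0.11 on the log2 scale (SE, adjusted p = 0.0805, 0.0689 and 0.0767, edgeR).

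The 5 higher calls were all of the large subunit. Rpl5 was at 83.3, 89.3, 96.5 and 100 CPM in exGF and at 109 to 140 CPM (median 116) in exGF-SI. The groups did not overlap, and it rose by 0.37 ± 0.08 (SE, adjusted p = 0.0249, edgeR). Rpl15, a large subunit protein known from Diamond-Blackfan anaemia, was at 63.7, 66.9, 71.2 and 71.5 CPM and then at 75.2 to 93.4 CPM (median 82.6), with no overlap (0.27 ± 0.07 SE, adjusted p = 0.046, edgeR). Rpl13a, known from the GAIT complex that silences inflammatory mRNAs, was at 112, 118, 122 and 126 CPM and then at 127 to 173 CPM (median 142), also with no overlap (0.26 ± 0.08 SE, adjusted p = 0.0762, edgeR). Rpl13 rose by 0.27 ± 0.07 (SE, adjusted p = 0.063, edgeR) and Rpl26 by 1.25 ± 0.28 (SE, adjusted p = 0.0345, edgeR).

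Without the libraries rich in Gm42418, which leaves 2 exGF pools, 3 members were called. Calls over all genes fell from 1161 of 15264 to 155 of 15854. Of the 14 members, 2 kept the call, Rps29 (adjusted p = 0.0986, edgeR) and Rpl35 (adjusted p = 0.0968, edgeR). Over the settings other than leaving out 1 library at a time, the adjusted p (edgeR or DESeq2) ranged from 5.61e-06 to 0.0986 for Rps29. For Rpl35 it ranged from 2.27e-05 to 0.0968. The count was 3 without exGF P2, 7 without exGF P3 and 5 without exGF P4, with calls over all genes in these fits not given. It was 10 without the libraries above 500 CPM of choroid plexus and ependyma markers (9 of the 14 kept), where 1133 of 14699 genes were called. The median log2 fold change of these markers here was 1.62. Correcting for GC content and for transcript length gave 6 higher and 5 lower in place of 5 and 9, where 626 of 15264 genes were called.

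Both lists of calls shared 3 members, Rpl35 lower and Rpl26 and Rpl5 higher, which is 20% of the germ-free and 21.4% of the exGF list, all in the same direction. Of all genes, 405 were called in both, which is 19.1% of the 2121 called in germ-free and 34.9% of the 1161 called in exGF mice, 404 of them in the same direction. Together 26 members were called in either. Over the 9 pairwise comparisons 28 of the 81 members were called at least once (34.6%) and 53 in none, where 22.5% of the 14301 genes tested in all 9 were called at least once.

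**Figure D2:**
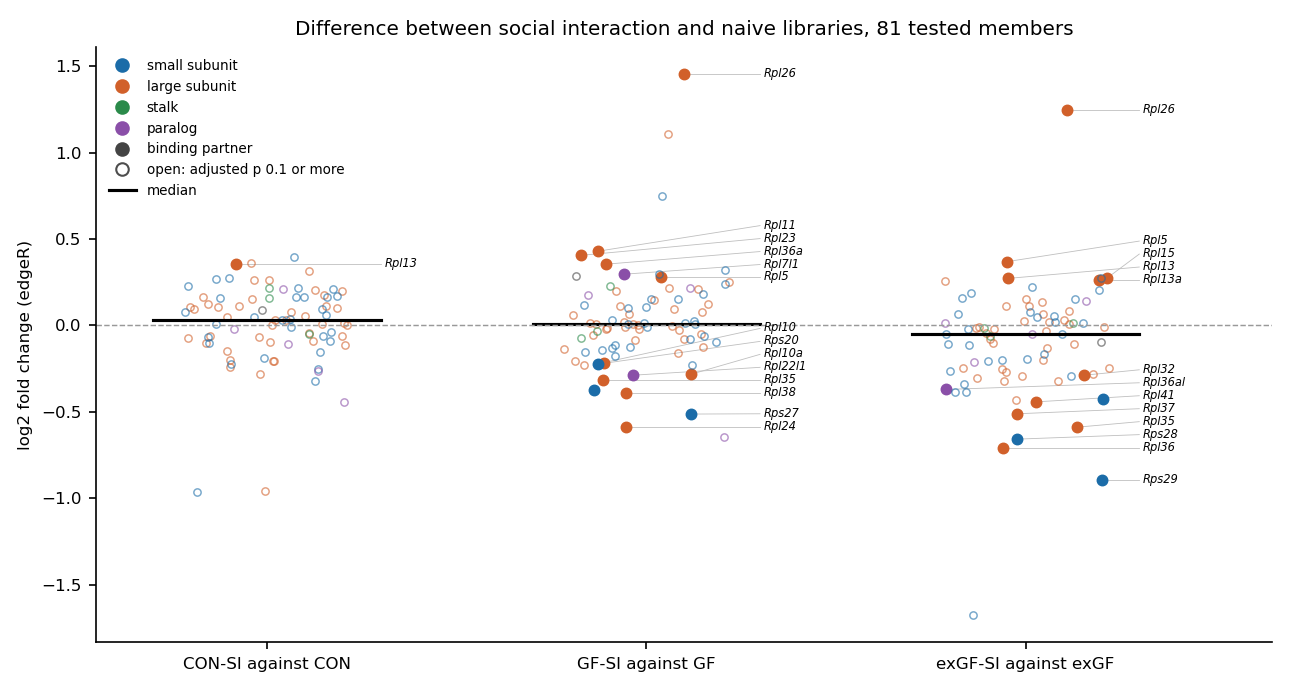
Log2 fold change (y axis, edgeR) after social interaction for each of the 81 tested members, in 1 column per colonisation group, coloured by role, with filled points for members called and a bar at the median. Most called members are labelled, and Rpl26 is the highest in germ-free (1.45) and exGF mice (1.25).

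**Figure D3:**
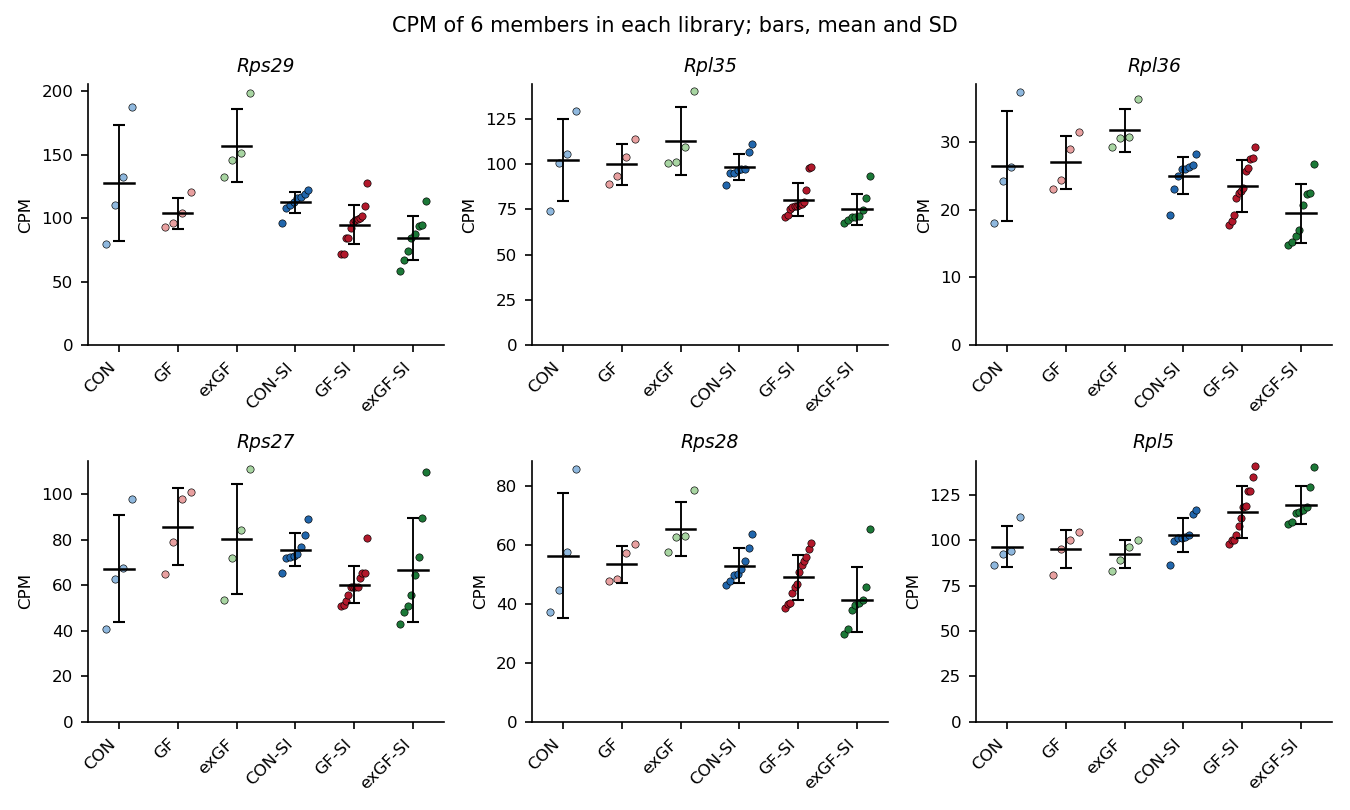
CPM of Rps29, Rpl35, Rpl36, Rps27, Rps28 and Rpl5 in each of the 40 libraries by group, with mean and SD. In exGF-SI all libraries of Rps29, Rpl35 and Rpl36 lie below, and all of Rpl5 above, the 4 exGF pools.

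Rpl35 (chr2:39001580-39005624 in GRCm38, minus strand) was the member called in the largest number of comparisons. Of its exon bases, 66.2% were shared with Wdr38 and Arpc5l on the opposite strand. The study counted without regard to strand, in the intersection-nonempty mode of HTSeq. Read pairs wholly within shared exon are then ambiguous and counted for neither gene. The count of Rpl35 thus rests on read pairs that reach its other exon bases, while its level per kilobase used all exon bases. Arpc5l, a subunit of the complex that branches actin filaments, had median levels of 53.7 CPM in GF and 63.1 CPM in GF-SI, 58.4 CPM in exGF and 54.5 CPM in exGF-SI, with overlapping ranges in both pairs. Wdr38 stayed below 2 CPM in all libraries. Rpl5 shared 26.7% of its exon bases with other genes, Fam69a and Snord21, and Fam69a was at 12.8 to 24.3 CPM over all libraries.

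In exGF mice 7 of the 9 lower calls were of members with a short coding sequence. Over the 81 members Spearman's rho between log2 fold change and the longest annotated coding length was 0.54 in exGF mice, 0.41 in conventional mice and 0.17 in germ-free mice. These are descriptions over genes measured in the same libraries. In exGF mice the 27 shortest members (138 to 390 coding bases) had a median of -0.24, with 23 of 27 negative, 7 called lower and none higher. The 27 longest (582 to 1257 bases) had a median of 0.02, with 12 negative, 4 called higher and none lower, and the middle group had a median of -0.02 with 15 negative. Rps29, Rpl35, Rpl36, Rps28, Rpl41 and Rpl37 were all in the short group. In germ-free mice the shortest group had 1 higher and 5 lower calls and the longest 2 and 3. Before social interaction rho was -0.40 for exGF against CON and -0.40 for exGF against GF. The same exGF pools entered both of these values and the rho of exGF mice after social interaction.

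**Figure D4:**
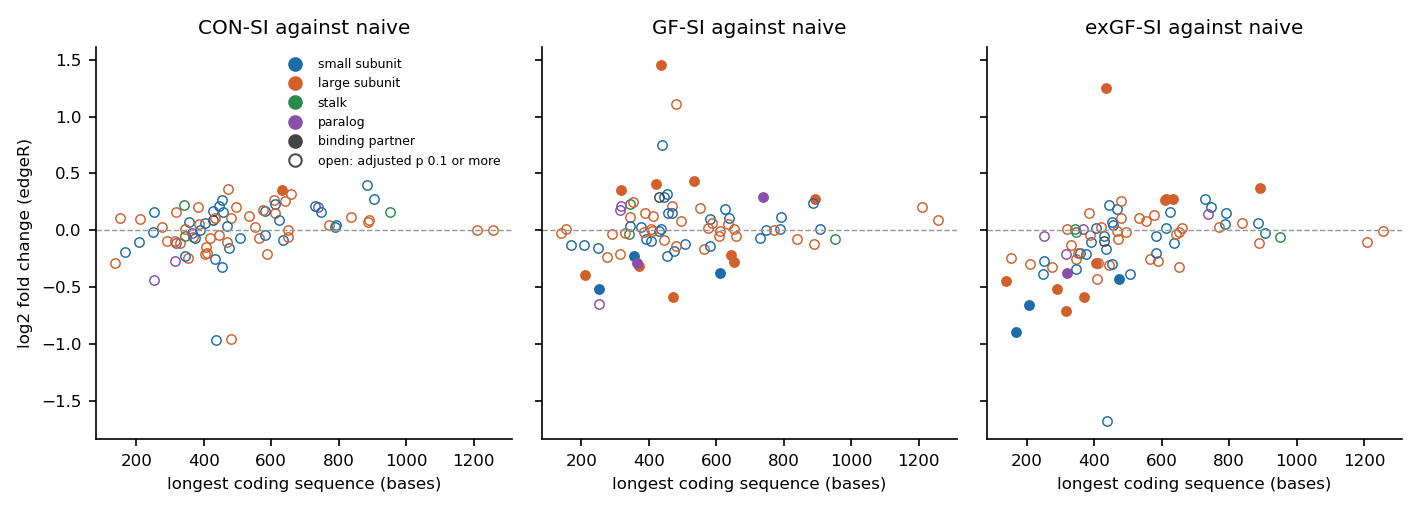
Log2 fold change after social interaction against the longest coding sequence of each of the 81 members (bases), 1 panel per colonisation group, with filled points for members called and colours for roles. In the exGF panel the 27 shortest genes centre at -0.24 and the 27 longest at 0.02.

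Calls of members with and without such a pyrimidine run near the start were set side by side, with no test. In germ-free mice the 27 members with a run of at least 8 bases had 0 higher and 4 lower calls and a median of 0.01, and the 34 tested members with an entry and no such run had 6 and 3 with a median of 0.01. In exGF mice the former had 3 higher and 1 lower call and a median of -0.20, and the latter 2 and 4 with a median of -0.05. Rpl35 and Rps27, with the runs printed above, were called lower, and Rpl15, with a run of 17 bases, was called higher in exGF mice.

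The comparisons among animals that had interacted share libraries, so they are given side by side. Against CON-SI, GF-SI had 3 members lower and none higher, where 0.643% of all genes were called lower and 0.458% higher, and exGF-SI had 3 lower and 1 higher, where 0.462% were called lower and 0.844% higher. Rpl35 was lower in both: it was at 88.4 to 111 CPM (median 97.2) in CON-SI, against a median of 77.0 CPM for GF-SI and one of 71.2 CPM for exGF-SI. The ranges overlapped, and the log2 fold changes were -0.30 ± 0.06 (SE, adjusted p = 0.0262, edgeR) and -0.40 ± 0.07 (SE, adjusted p = 0.0113, edgeR). In GF-SI, Rps27 was also called lower (-0.33 ± 0.07 SE, adjusted p = 0.0442, edgeR), from a CON-SI range of 65.3 to 88.9 CPM.

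In exGF-SI the other lower calls were Rpl18 and Rps29. Rpl18, a large subunit protein, was at 24.4 to 31.9 CPM (median 27.6) in CON-SI and at 17.8 to 27.7 CPM (median 20.5) in exGF-SI (log2 fold change -0.39 ± 0.09 SE, adjusted p = 0.0633, edgeR). Rps29 was at 95.9 to 122 CPM (median 114) in CON-SI and fell by 0.42 ± 0.10 (SE, adjusted p = 0.0761, edgeR). Without exGF-SI S3 this comparison gave 11 members, and it gave 1 without any of CON-SI S10, S12 and S5 and exGF-SI S10 and S6, and 2 without CON-SI S3. Without CON-SI S10 the comparison of GF-SI with CON-SI gave 1 member and without GF-SI S11 it gave 5. Calls over all genes with these single libraries left out are not given. The libraries above 500 CPM of choroid plexus and ependyma markers lay in GF-SI and exGF-SI, and without them Rpl35 alone kept its call in GF-SI and Rpl35 and Rpl18 in exGF-SI.

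Between GF-SI and exGF-SI no member was called, where 0.0995% of all genes were. At an unadjusted p below 0.05 (edgeR) there were 10 of the 81 members, and 12.9% of all genes. DESeq2 called 296 of 27805 genes, among them 2 members, Rpl3 (log2 fold change -0.31 by edgeR) and Rpl15 (0.16). Both members had an adjusted p of 0.187 with edgeR. Rps2 of the small subunit had a log2 fold change of -0.18 ± 0.08 (SE, adjusted p = 0.313, edgeR).

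Among naive pools 1 member was called between CON and GF, where 0.142% of all genes were, and none between CON and exGF or between GF and exGF, where 0.104% and 0% were. The unadjusted p (edgeR) was below 0.05 for 13, 3 and 20 of the 81 members, and for 11.05%, 5.43% and 9.42% of all genes. DESeq2 called 2, 0 and 1 members, and in all 155 of 25925, 60 of 25490 and 72 of 25888 genes. The call was Rpl21, a large subunit protein with 12 processed copies in the table, described with the widely spread genes below (1.22 ± 0.22 SE, adjusted p = 0.0876, edgeR). The call of Rpl21 was lost without any of 6 of the 8 libraries (CON P2, P3 or P4, GF P1, P2 or P3), without the libraries rich in Gm42418 (adjusted p = 0.175), after correcting GC and length effects (adjusted p = 0.115) and in a fit over 6 groups (adjusted p = 0.207), over a range of 2.54e-05 (DESeq2) to 0.207 by setting. Rps15, a small subunit protein, was at 86, 97.1, 101 and 105 CPM in CON, at 64.7, 78.1, 78.4 and 80.7 CPM in GF and at 72.9, 75, 81.2 and 84.5 CPM in exGF. Its CON pools lay above all others, but it missed the threshold against GF (-0.37 ± 0.10 SE, adjusted p = 0.275, edgeR) and against exGF (-0.31 ± 0.08 SE, adjusted p = 0.48, edgeR). Rpl30 of the large subunit had overlapping pools in CON and exGF (0.28 ± 0.14 SE, adjusted p = 0.92, edgeR). Between GF and exGF, Rps29 came closest: the GF pools were at 93.4, 96.7, 105 and 121 CPM and all exGF pools lay above them, with a log2 fold change of 0.59 ± 0.12 (SE, adjusted p = 0.275, edgeR), and this was the gene DESeq2 called (adjusted p = 0.00565). Rps13, a small subunit protein, was at 16.8, 18.2, 18.9 and 19.2 CPM in GF and at 21.3, 22.2, 25.4 and 25.8 CPM in exGF, without overlap and short of the threshold (0.36 ± 0.10 SE, adjusted p = 0.394, edgeR).

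The responses of the 3 colonisation groups were also compared with each other in a fit over all groups. No member was called for GF-SI minus CON-SI, exGF-SI minus GF-SI or exGF-SI minus CON-SI, where 0.0931%, 0% and 0% of all genes were. The unadjusted p (edgeR) was below 0.05 for 18, 18 and 6 of the 81 members, and for 15.8%, 11.4% and 5.83% of all genes. DESeq2 called 3, 1 and 0 members, and in all 495, 43 and 1 of 29592 genes. The differences that DESeq2 called between germ-free and conventional mice included those of Rpl10 (-0.47 on the log2 scale by edgeR) and Rpl24 (-0.95). The response of Rps29 differed by -0.77 between exGF and germ-free mice (adjusted p = 0.232, edgeR).

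A few members varied between single animals far more than the rest. Over the 28 SI libraries the ratio of the highest to the lowest CPM had a median of 1.68 over 81 members. It was under 2 for 62 of them and as low as 1.31 for Rps15a. It was above 3 for Rpl29 (45.3), Rpl26 (31.2), Rps16 (15.8), Rpl21 (5.89), Rps27rt (5) and Rpsa (3.5).

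Rpl29 (chr9:106429454-106431568), a large subunit protein also known as a heparan sulphate interacting protein, had 2 separate levels. In 13 single animals it was at 1.13 to 2.20 CPM and in the other 15 at 27.5 to 51.4 CPM, with none between. The low level was found in 4 of 8 CON-SI animals, in 8 of 12 GF-SI animals and in 1 of 8 exGF-SI animals. The CON pools were at 30.1, 31.6, 34.7 and 35.9 CPM, the GF pools at 0.839, 1.67, 1.69 and 18.6 CPM and the exGF pools at 14.4, 17.4, 33.1 and 33.9 CPM, so 3 pools lay between both levels of the single animals. All GF pools were below all CON pools, but Rpl29 missed the threshold (-2.67 ± 0.66 SE, adjusted p = 0.254, edgeR). Its 3 processed copies that held any count stayed at or below 0.393 CPM in single animals.

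Rpl26 (chr11:68901583-68906989), a protein at the tunnel exit that is also known to bind Trp53 mRNA, was at 4.58 and 5.35 CPM in 2 single animals, 1 of CON-SI and 1 of GF-SI, and at 41.5 to 143 CPM in the other 26. It was at 26.1, 45, 55.9 and 67.7 CPM in CON, 5.38, 25.8, 26.1 and 28.8 CPM in GF and 27.3, 31.6, 45.6 and 48.6 CPM in exGF. The higher calls of Rpl26 in both responses thus came from pools below most single animals. Without the low pool GF P2 the fold change in germ-free mice was 1.13 on the log2 scale and missed the threshold (adjusted p = 0.175, edgeR; range 0.00554 to 0.175 when single libraries were left out).

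Rpl21 (chr5:146832890-146837032) was at 92.1 to 113 CPM in 7 single animals, 6 of CON-SI and 1 of GF-SI, and at 228 to 542 CPM in the other 21, among them all of exGF-SI. The pools ran the same way, at 101, 106, 176 and 193 CPM in CON, 236, 331, 366 and 407 CPM in GF and 211, 273, 419 and 471 CPM in exGF. Rpl21 was called higher in GF than in CON, and in exGF-SI than in CON-SI (1.26 ± 0.29 SE, adjusted p = 0.0638, edgeR). The latter call was lost without any of 8 of the 16 libraries, without those above 500 CPM of choroid plexus and ependyma markers (adjusted p = 0.176) and after correcting GC and length effects (adjusted p = 0.11). The low level was thus seen mostly in CON-SI, where breeding stock and colonisation cannot be told apart.

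Rps16, a small subunit protein whose tail touches the tRNA in the decoding region, varied without a clear gap, from 0.842 to 13.3 CPM in single animals, and was at 6.03, 8.28, 9.22 and 18.9 CPM in CON, 1.13, 3.12, 6 and 6.11 CPM in GF and 5.95, 6.08, 15.3 and 21.2 CPM in exGF. It was not called in any comparison. For Rpsa a processed copy, Rpsa-ps10, ran from 3.75 to 126 CPM over the same 28 libraries. Pearson's r between the log2 levels of Rpsa and Rpsa-ps10 was -0.69 over these libraries, a description of both rows within the same counts. Of the 84 members, 54 had at least 1 processed copy in the table, 245 rows in all, and reads that matched several places were not counted, so the levels of such genes are uncertain. The part of such copies in the separate levels was not tested.

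**Figure D5:**
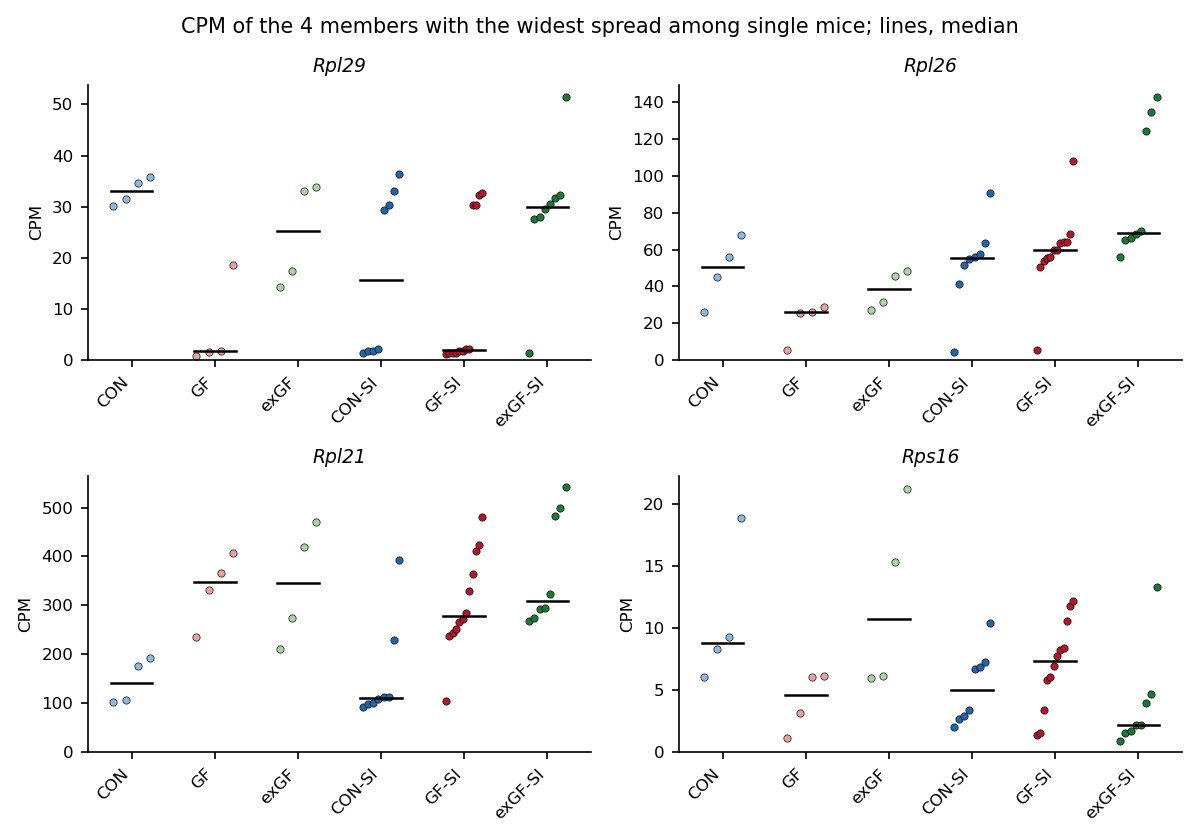
CPM of Rpl29, Rpl26, Rpl21 and Rps16 in each library by group, with a line at the group median. The single animals form 2 sets for Rpl29, at or below 2.20 CPM and at or above 27.5 CPM, and for Rpl21, at or below 113 CPM and at or above 228 CPM.

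Over all 81 tested members, the widely spread genes included, members tended to deviate from their group means together. Over the 3240 pairs of members the median Pearson r of the deviations was 0.32 across 40 libraries, and 87% of pairs were above 0. The 5 closest pairs were Rps21 and Rps25 (0.89), Rplp1 and Rps20 (0.89), Rpl27a and Rpl35 (0.89), Rpl27 and Rpl35 (0.87) and Rps3a1 and Rps4x (0.85). These pairs share libraries, depth and scaling, and nothing was tested on them.

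The genes that build and regulate ribosomes were read from the same fits. Of 30 genes of ribosome assembly and RNA polymerase I, none was called in conventional mice, 14 were called higher in germ-free and 4 in exGF mice after social interaction, and none lower, where 7.87% and 4.6% of all genes were called higher. The same background, with 2.35% in conventional mice, holds for the higher calls of the lists that follow, and for lower calls it was 1.37%, 5.86% and 3.01% in conventional, germ-free and exGF mice. Their median log2 fold change in germ-free mice was 0.23, against 0.01 for the ribosomal proteins and -0.01 for all genes. Ubtf, a factor that RNA polymerase I needs at the ribosomal RNA genes, rose by 0.48 ± 0.10 (SE, adjusted p = 0.00725, edgeR), Ltv1, an assembly factor of the small subunit, by 0.47 ± 0.10 (SE, adjusted p = 0.0101, edgeR) and Ebna1bp2, a nucleolar assembly factor, by 0.26 ± 0.06 (SE, adjusted p = 0.0231, edgeR). The count of 14 was 7 without GF P2, 5 without GF P3 and 9 without the libraries above 500 CPM of choroid plexus and ependyma markers. That of 4 in exGF mice was 0 without any of exGF P2, P3 and P4 or without the libraries rich in Gm42418. Calls over all genes with single libraries left out are not given, here or for the lists that follow.

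Other mRNAs of the TOP class had 0, 5 and 1 of 16 genes higher in conventional, germ-free and exGF mice and none lower. Nap1l1, a histone chaperone, rose by 0.36 ± 0.10 (SE, adjusted p = 0.0402, edgeR) in germ-free and by 0.28 ± 0.07 (SE, adjusted p = 0.0421, edgeR) in exGF mice, and Pabpc1, the cytoplasmic poly(A)-binding protein, by 0.30 ± 0.08 (SE, adjusted p = 0.0354, edgeR) in germ-free mice. The 5 were 0 without GF P2. Of 18 genes of mTORC1 signalling none was called in conventional mice, 2 were called higher and 2 lower in germ-free mice, and 2 higher in exGF mice. In germ-free mice Rheb and Eif4g1 were higher, and Eif4ebp1 and Mlst8 (-0.25 ± 0.09 SE, adjusted p = 0.0825, edgeR) lower. In exGF mice Rheb and Eif4e were higher, and Mtor missed the threshold (-0.15 ± 0.06 SE, adjusted p = 0.148, edgeR). Rheb, the direct activator of mTORC1, was among the higher genes in both (0.38 ± 0.12 SE, adjusted p = 0.0502, and 0.32 ± 0.10 SE, adjusted p = 0.0907, edgeR), and Eif4ebp1, the repressor that mTORC1 inactivates, was lower in germ-free mice (-0.74 ± 0.19 SE, adjusted p = 0.0235, edgeR).

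Of 8 transcription factors of ribosomal protein promoters 0, 1 and 1 were called higher. The factor in germ-free mice was Gabpa (0.42 ± 0.09 SE, adjusted p = 0.0112, edgeR) and that in exGF mice its partner Gabpb1 (0.36 ± 0.10 SE, adjusted p = 0.0651, edgeR). Fau and Rack1, ribosomal proteins whose symbols fall outside the rule, were not called, Fau in exGF mice being at -0.44 with an adjusted p of 0.111 (edgeR). Of 76 tested mitochondrial ribosomal proteins, 1 was higher and 1 lower in conventional mice, 4 and 2 in germ-free mice and 0 and 8 in exGF mice, with medians of -0.02, -0.06 and -0.14. Mrpl12, which also binds the mitochondrial RNA polymerase, had the smallest p in exGF mice (-0.66 ± 0.14 SE, adjusted p = 0.0253, edgeR), and the 8 were 0 without exGF P2 or P4 and 1 without exGF P3 or without the libraries rich in Gm42418.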

How the data were processed

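Amygdala RNA of 40 libraries had been depleted of ribosomal RNA, made into stranded libraries and sequenced in pairs. The submitters' processing notes name CASAVA. Per the study's methods, the authors trimmed with Trimmomatic 0.32, aligned with STAR 2.4.0f1 to GRCm38 and counted with HTSeq 0.6.0 without regard to strand, which skips reads that match several places; they tested with DESeq2 1.6.2. The deposited values are raw counts of read pairs per gene, not normalized. Symbols, lengths and biotypes came from GENCODE vM21 (42548 of 43629 identifiers matched).

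From these counts, genes that passed filterByExpr were scaled by TMM and tested for each pair of groups with the edgeR 4.0.16 quasi-likelihood F-test (R 4.3.3), Benjamini-Hochberg adjusted over all genes tested, at a threshold of 0.1. The 3 differences between responses came from a fit over all 6 groups. CPM were computed on TMM-scaled library sizes over all libraries. Depth was 7291810 to 19962000 counts per library, and the least expressed members rest on few counts. Each member's p reads the spread between libraries, which were pools in naive groups and single animals in SI groups.

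Alternatives were DESeq2 1.42.0, RLE scaling, no filter on low counts, a threshold of 0.05, a fit over 6 groups, a spline correction for GC content and transcript length, other denominators for levels, and leaving out each library or the 5 libraries with over 5% of counts in Gm42418. Leaving out the 5 libraries above 500 CPM of choroid plexus and ependyma markers was added after seeing the data. The scripts were tested on simulated data. The members and lists were chosen with earlier results of these data known. Named genes were the stalk genes, Rpsa, the paralog pairs, Rps19bp1, the 3 highest and 3 lowest levels, the 4 members with the smallest p in each comparison and members called in several responses; other members called were named after their values were seen, as were those with the widest spread. Some genes that enter the counts and fits are not reported here. Columns map to groups by name, so each library is a replicate of its group without further labels. Promoter windows came from RefSeq (GRCm38.p6).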

Additional observations from a re-analysis of the deposited data

Results flagged for a closer look

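In the groups of 4 to 8 libraries, 20 of 190 tests of a named member, or of the members' summed share, in a group found a highest or lowest library set apart from the others by Dixon's criterion, where chance gives about 1 in 20; the groups of 12 were not tested. Several of the named members were named for their wide spread or their calls, so this share is not to be read against chance. Over all 81 members it was 28 of 405 (6.91%). No cause was tested for any of them.

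Several libraries stood out for more than 1 gene. In exGF-SI, S3 was highest for Rps28 (65.5 CPM, others 29.6 to 45.6) and for Rpl37 (128 CPM, others 65.3 to 92.0). In CON, P2 was highest for Rpl23 (205 CPM, others 119 to 131), Rpl22l1 (12.8 CPM, others 8.01 to 8.82) and Rps27l (9.37 CPM, others 5.49 to 6.12). In CON, P1, the library with the largest share of Gm42418, was lowest for Rpl13 (44.6 CPM, others 58.9 to 59.8) and highest for Rps27rt (6.12 CPM, others 1.08 to 1.56). In GF, P3 was highest for Rpsa (202 CPM, others 106 to 113) and for Rpl29 (18.6 CPM, others 0.839 to 1.69), and P2 was lowest for Rpl26 (5.38 CPM, others 25.8 to 28.8).

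The other libraries stood out for a single gene. In CON-SI these were S7 for Rplp2 (33.0 CPM, others 23.3 to 27.7), S10 for Rpl38 (119 CPM, others 91.7 to 103), S3 for Rpl10a (25.3 CPM, others 29.7 to 33.5) and S11 for Rpl21 (393 CPM, others 92.1 to 228). In exGF they were P3 for Rpl18 (28.6 CPM, others 24.4 to 25) and P2 for Rpl10 (58.6 CPM, others 65.6 to 66.7). In exGF-SI they were S10 for Rpl13 (60.3 CPM, others 69.7 to 77.9), S7 for Rps16 (13.3 CPM, others 0.842 to 4.68) and S9 for Rps2 (59.0 CPM, others 50 to 54.0). In GF it was P4 for Rps15 (64.7 CPM, others 78.1 to 80.7).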

How the results depend on the processing

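No called member changed direction. The 38 calls of a member in a comparison gave 856 values under the alternatives, of which 603 kept the call, 253 lost it and 0 turned round; 5 calls were kept throughout, Rps27 and Rpl7l1 in GF-SI, Rps29 and Rpl35 in exGF-SI, and Rpl35 in exGF-SI against CON-SI. Apart from construction (a stricter threshold, fewer libraries or fewer genes tested), the cause of the changes was not tested. At a threshold of 0.05 the members called were 0 for CON-SI, 7 for GF-SI and 8 for exGF-SI. They were 0 for GF against CON and 1 for exGF-SI against CON-SI. Over all genes the calls in these comparisons were 237, 1237, 438, 8 and 56. Without the libraries rich in Gm42418 the members called were 0 in CON-SI and 3 in exGF-SI. They were 0 for GF and 2 for exGF against CON, and 1 for exGF-SI against GF-SI. Over all genes the calls in these comparisons went from 566 to 26, from 1161 to 155, from 21 to 16, from 15 to 11 and from 15 to 120. Without the libraries rich in choroid plexus markers the members called were 8 in GF-SI, and 1 for GF-SI and 2 for exGF-SI against CON-SI. Over all genes the calls in these 3 comparisons went from 2121 to 1429, from 166 to 72 and from 195 to 93. A fit over 6 groups gave 3 members in CON-SI, 0 for GF against CON and 1 for exGF-SI against GF-SI. Over all genes it gave 969, 58 and 135. DESeq2 gave 2 members in CON-SI, 2 for GF against CON, 1 for exGF against GF, and 6 for GF-SI and 11 for exGF-SI against CON-SI. It gave 2 for exGF-SI against GF-SI, 3 for the response difference GF-SI minus CON-SI and 1 for exGF-SI minus GF-SI. It also called more genes in all, with 521 for GF-SI and 558 for exGF-SI against CON-SI, where edgeR called 166 and 195. In the other comparisons, in the order given, DESeq2 called 962, 155, 72, 296, 495 and 43 genes. The edgeR calls there were 566, 21, 0, 15, 15 and 0. With no filter there were 5 members for GF and 1 for exGF against CON and 3 for exGF against GF. Over all genes there were then 205, 84 and 80 calls. Correcting for GC content and for transcript length gave 0 members for GF against CON and 1 for exGF-SI against CON-SI. RLE scaling gave 1 for GF-SI minus CON-SI. Over all genes the calls in these comparisons were then 16, 42 and 35.

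Leaving out each library in turn gave 0 to 2 members in CON-SI, 2 to 17 for GF-SI, 3 to 21 for exGF-SI, 0 to 1 for GF against CON, 0 to 1 for exGF against GF, 1 to 5 for GF-SI and 1 to 11 for exGF-SI against CON-SI, 0 to 1 for exGF-SI against GF-SI, and 0 to 4 and 0 to 1 for the response differences GF-SI minus CON-SI (1 to 4 without 1 of 12 libraries, the most without CON-SI S7) and exGF-SI minus GF-SI (1 without exGF-SI S7). Counts of 0 in CON-SI came without CON P1, P2 or P3 or CON-SI S3, S5, S7, S10, S11 or S12, and that of 2 without CON-SI S2. For GF against CON the count was 0 without CON P2 or P3 or GF P1 or P2, and Rpl21 lost its call without these, CON P4 or GF P3. A member was called for exGF against GF without GF P3 and for exGF-SI against GF-SI without exGF-SI S7. Calls over all genes with single libraries left out are not given here. With Gm42418 and the mitochondrially encoded genes out of the total, the mean share of the members was 0.783% in GF, 0.797% in exGF, 0.787% for CON-SI, 0.769% for GF-SI and 0.782% for exGF-SI. Per kilobase of the longest transcript the median member was at 62.4 CPM. No paired analysis was possible because the count columns carry no replicate numbers that the labels tie to pairs. Depth limits the paralogs near 0, for which no difference was detectable.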
